A study of Sus scrofa with 12 samples.

Results

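The mitochondrial genome of the pig encodes 7 subunits of respiratory complex I, and their mRNAs were followed through the in vitro maturation of porcine oocytes. The members were taken by name: ND1, ND2, ND3, ND4L, ND4, ND5 and ND6, which are 7 of the 31908 genes listed in each library and 7 of the 13 protein genes of the mitochondrial genome. Oocytes were collected from pooled cumulus-oocyte complexes of prepubertal gilt ovaries, at 0h, 22h and 46h of culture, with 4 libraries per time and 20 oocytes per library. The cumulus cells were removed before lysis, the cDNA was primed with oligo-dT and amplified by the SMART-Seq2 method, and all groups shared this treatment with time in culture as the only stated difference. The design text gives the middle time as 24h, whereas the sample labels give 22h, which is used here. The labels do not say whether the replicates of a time came from separate animals or cultures, so the p-values measure the spread between these libraries.

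Complex I (NADH:ubiquinone oxidoreductase) takes electrons from NADH, passes them to ubiquinone and pumps protons across the inner mitochondrial membrane. All of the mitochondrially encoded subunits sit in its membrane arm. ND2, ND4 and ND5 are the antiporter-like subunits of the proton pumping machinery, ND1 forms the base of the ubiquinone site where the membrane arm meets the peripheral arm, and ND3, ND4L and ND6 are small subunits that lie between ND1 and the antiporter-like subunits. The remaining core subunits and all accessory subunits are encoded in the nucleus. Mitochondrial mRNAs are cut from long transcripts of either strand, in most places at the flanking tRNAs, and most receive a poly(A) tail that completes the stop codon of several of them. The ND6 mRNA is an exception in human cells, where it is known to carry no tail or only a short one, and oligo-dT priming starts from poly(A).

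The genes lie on the 16613-base mitochondrial chromosome of the RefSeq assembly Sscrofa11.1, and each is a coding gene without introns. ND1 (ENSSSCG00000018065) spans chrMT:3922-4876, ND2 (ENSSSCG00000018069) chrMT:5087-6128, ND3 (ENSSSCG00000018084) chrMT:10653-10998, ND4L (ENSSSCG00000018086) chrMT:11069-11365, ND4 (ENSSSCG00000018087) chrMT:11359-12736 and ND5 (ENSSSCG00000018091) chrMT:12935-14755, all on the plus strand. ND6 (ENSSSCG00000018092) spans chrMT:14739-15266 on the minus strand, the only protein gene there. The last 30 bases of each gene are shown in its own sense because the members differ in how the stop codon is encoded there, with the bases of the stop codon that the genome encodes in capitals.
ND1: ttataacagcaagcattcccccacaatcaT
ND2: ctataacaccagccctctcgtccctaaacT
ND3: gaacccaaaaaggcctagaatgagcagaaT
ND4: accctaaaataatcctaggacccctttacT
ND4L: gtccaaaacttaaaccttttacaatgcTAA
ND5: agcataacactatttaattaccacgagTAA
ND6: gttattatagagattactcgtggtaatTAA

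ND1, ND2, ND3 and ND4 end in a lone T, which the poly(A) tail completes to a stop codon, whereas ND4L, ND5 and ND6 carry a full TAA. Pairs of members also share bases, which are shown in capitals on the plus strand. ND4L and ND4 share 7 bases in the same sense, and ND5 and ND6 share 17 bases on opposite strands. No tRNA lies between ND4L and ND4, and whether they are cut into separate mRNAs was not tested. The members are therefore counted as genes.
ND4L and ND4, chrMT:11348-11376: aaccttttacaATGCTAAaaattattatc
ND5 and ND6, chrMT:14733-14761: cactatTTAATTACCACGAGTAAtctcta

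The sources used here do not state whether strand was used in quantification, so reads from ND6 and from antisense RNA of that region cannot be told apart, and reads within the overlaps cannot be assigned with certainty. ND6 also differs in base composition in its own sense, with 44.9% T and 7.20% C, against 24.0% to 31.0% T and 24.9% to 29.8% C in the other 6 members. Each member has between 3 and 10 partial or full-length matches of at least 100 bases elsewhere in the nuclear genome. The highest identity of such a match ranged from 86.5% (ND4L) to 97.8% (ND2), so reads shared with these copies are uncertain. The longest run of identical bases was 221 in ND1 and 128 in ND2, against 26 (ND4L) to 77 (ND6) in the other members.

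FPKM scales fragments to the length of the transcript and to all fragments of the library, and the depth behind the values is unknown. The steps between the lowest values gave depths relative to replicate 1 of 0h, which ranged from 0.908 to 1.0 at 0h, between 1.04 and 1.30 at 22h and between 1.21 and 1.37 at 46h. Of 17 oocyte markers, 15 had a matching identifier, and all 15 had a mean of at least 1 FPKM. Of 17 cumulus and granulosa cell markers, 15 matched, and their summed level lay between 36.6 and 85.5 FPKM at 0h, between 52.1 and 82.3 FPKM at 22h and between 111 and 140 FPKM at 46h. VCAN made up most of that sum, with means of 58.3 FPKM at 0h and 126 FPKM at 46h. Of the 15, 2 reached a mean of 1 FPKM, VCAN and STAR, and LHCGR, INHA and AREG were at 0 in all 12 libraries. STAR lay between 2.06 and 7.58 FPKM over all libraries, with means of 4.5, 3.5 and 4.6 FPKM at 0h, 22h and 46h. FSHR, CYP11A1 and PTX3 reached at most 0.14, 0.31 and 0.26 FPKM in a library. The part of depth and of these markers in the results was not tested. The depths of 0h and 22h did not overlap, and the summed cumulus and granulosa marker levels overlapped between 0h and 22h and were higher in all 46h libraries.

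The combined level of the 7 members was low in immature oocytes and high by the middle of maturation. Their sum lay between 905 and 2959 FPKM at 0h, between 12802 and 20202 FPKM at 22h, and between 24200 and 31219 FPKM in mature oocytes. As a share of the total FPKM of a library, this was between 0.130% and 0.393% at 0h, between 1.65% and 2.61% at 22h and between 3.05% and 3.90% at 46h, with no overlap between times. Because FPKM is relative to the library, more mitochondrial mRNA per oocyte and less of the other RNA cannot be told apart.

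Among the antiporter-like subunits, ND2 had the highest FPKM of the members at every time. Its level in replicates 1 to 4 was 364, 1229, 1183 and 591 FPKM at 0h, 9871, 5827, 6108 and 8658 FPKM at 22h, and 14296, 14567, 11616 and 16646 FPKM at 46h. The ranges of the 3 times did not overlap, and the means were 842 ± 431, 7616 ± 1970 and 14281 ± 2064 FPKM (SD, n = 4 each). Among all 31908 genes ordered by mean level, ND2 stood at place 121 at 0h, 17 at 22h and 10 at 46h.

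ND5, the antiporter-like subunit at the far end of the membrane arm, was at 168, 378, 422 and 219 FPKM at 0h. It was at 2781, 1859, 2118 and 2329 FPKM at 22h, and at 4757, 5252, 3621 and 5319 FPKM at 46h. Every library of a later time was above every library of an earlier one, with means of 297 ± 123, 2272 ± 390 and 4737 ± 785 FPKM (SD, n = 4 each).

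ND4, the neighbour of ND5 in the membrane arm, had the lowest mean of the members at 22h and 46h. It was below ND4L in 3 of 4 libraries at each of these times. It was measured at 45.6, 142, 121 and 61.2 FPKM at 0h, at 351, 272, 260 and 358 FPKM at 22h, and at 592, 576, 528 and 777 FPKM at 46h. The times did not overlap, with means of 92.5 ± 46.4, 310 ± 51.5 and 618 ± 109 FPKM (SD, n = 4 each).

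ND1, at the ubiquinone site, was second to ND2 at 0h and lay below ND6 and ND5 as well at 22h and 46h. Its levels were 218, 576, 681 and 310 FPKM at 0h, 1167, 1497, 1254 and 1133 FPKM at 22h, and 2512, 1722, 2427 and 1961 FPKM at 46h. Here too the times were separate, with means of 446 ± 218, 1263 ± 164 and 2155 ± 377 FPKM (SD, n = 4 each).

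ND6, a small subunit, was at 49.8, 166, 249 and 127 FPKM at 0h, at 4260, 1926, 2365 and 2894 FPKM at 22h, and at 5545, 3781, 5218 and 4618 FPKM at 46h. Both later times were above all 0h libraries, whereas replicate 1 of 22h lay within the range of 46h. The means were 148 ± 82.7, 2861 ± 1013 and 4791 ± 775 FPKM (SD, n = 4 each).

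ND4L had the lowest mean of the members at 0h, with 17.2, 28.0, 62.5 and 24.8 FPKM. It was at 350, 452, 405 and 676 FPKM at 22h, and at 669, 952, 225 and 1042 FPKM at 46h. Replicate 3 of 46h was below all 22h libraries, replicates 2 and 4 were above all of them and replicate 1 lay within their range. The means were 33.1 ± 20.1, 471 ± 143 and 722 ± 368 FPKM (SD, n = 4 each).

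ND3 had no higher mean at 46h than at 22h. It was at 42.1, 104, 240 and 192 FPKM at 0h, at 1423, 969, 560 and 644 FPKM at 22h, and at 1007, 714, 566 and 855 FPKM at 46h. The 46h values lay within the range of the 22h values, with means of 785 ± 189 and 899 ± 391 FPKM (SD, n = 4 each), and both times were above the 0h mean of 144 ± 88.6 FPKM.

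**Figure D1:**
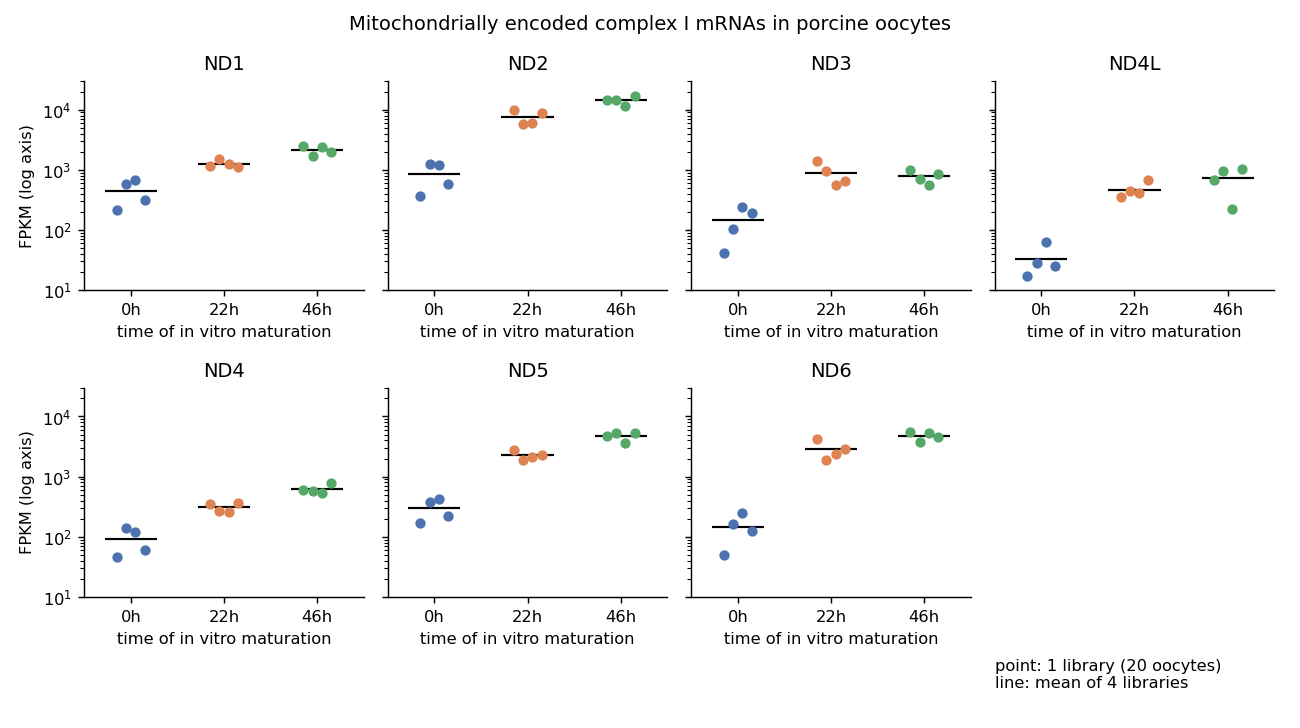
FPKM of the 7 mitochondrially encoded complex I genes (log axis) against time of in vitro maturation; each point is 1 library of 20 oocytes and each line the mean of 4. All 22h and 46h libraries lie above all 0h libraries for every member, and the 22h and 46h points overlap for ND3, ND4L and ND6.

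FPKM is set per length, and the members are ordered here by their listed FPKM. Shared bases, nuclear copies and priming from poly(A) can differ in effect by gene, so this need not be the order of mRNA molecules. At 0h the order of the means was ND2, ND1, ND5, ND6, ND3, ND4 and ND4L, and the ranges of all neighbours in this order overlapped. Within each 0h library ND2 was above ND1, ND1 above ND5, ND5 above ND6 and ND4 above ND4L. ND6 was above ND3 in 3 of 4 libraries and ND3 above ND4 in 2 of 4. At 22h the order of the means was ND2, ND6, ND5, ND1, ND3, ND4L and ND4, where ND2 and ND6, and ND5 and ND1, were separate. The 46h order was that of 22h, with the same separations and a further one between ND1 and ND3. By its mean ND6 thus stood below ND2, ND1 and ND5 at 0h and below ND2 alone at both later times, but at 46h it was above ND5 in only 2 of 4 libraries and the ranges overlapped. Replicate 1 of 0h was the lowest 0h library for every member.

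The comparison of 22h with 0h covers the part of maturation in which meiosis resumes. All 7 members rose (limma on log2(FPKM + 1), two-sided, adjusted over the 7013 genes whose mean reached 1 FPKM). A gene was called where the adjusted p was under 0.05 and the fold change over 1.5, and 7.84% of the genes tested were called higher and 18.9% lower. The rise was largest for ND6, with a log2 fold change of 4.42 (SE 0.39, adjusted p = 7.16e-06) and a 19.4-fold difference of the means. ND4L followed with 3.91 (SE 0.45, adjusted p = 4.13e-05), ND2 with 3.31 (SE 0.33, adjusted p = 1.62e-05) and ND5 with 3.02 (SE 0.27, adjusted p = 8e-06). ND3 rose by 2.80 (SE 0.45, adjusted p = 0.000408). The smallest rises were those of ND4, 1.87 (SE 0.30, adjusted p = 0.000449), and ND1, 1.63 (SE 0.30, adjusted p = 0.00101). The median over the members was 3.02, and over all genes tested 0.00.

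The comparison of 46h with 22h covers the completion of maturation, where 4 of the 7 members rose against 9.87% of all genes called higher and 32.6% called lower. ND5 rose by 1.06 on the log2 scale (SE 0.27, adjusted p = 0.00468) and ND4 by 0.99 (SE 0.30, adjusted p = 0.0144). ND2 rose by 0.93 (SE 0.33, adjusted p = 0.032) and ND1 by 0.76 (SE 0.30, adjusted p = 0.0464). ND6 had 0.79 (SE 0.39, adjusted p = 0.105), ND4L 0.45 (SE 0.45, adjusted p = 0.438) and ND3 -0.13 (SE 0.45, adjusted p = 0.832, 95% interval -1.09 to 0.83), which were not called.

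The calls of ND5 and ND4 were made in every fit that left out a library, whereas those of ND1 and ND2 were not. That of ND1 was lost without replicate 1, 3 or 4 of 22h or of 46h (limma, adjusted p = 0.0704 to 0.112), and that of ND2 without replicate 2 or 3 of 22h or replicate 1, 2 or 4 of 46h (adjusted p = 0.0621 to 0.0847). Both calls were also lost with the replicate number as a block (limma, adjusted p = 0.0512 for ND1 and 0.061 for ND2). With no filter on low values they were lost as well (adjusted p = 0.129 and 0.109). ND6 was called without replicate 1 of 0h (adjusted p = 0.0233), which shares in the estimate of the spread. Without replicate 3 of 46h, the low library of ND4L, its log2 fold change was 0.93 (adjusted p = 0.0508). The value of ND3 was above 0 without replicate 1 of 22h (0.12) or replicate 3 of 46h (0.02), and with median-of-ratios scaling (0.23).

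Over the whole of maturation, all 7 members rose, against 16.8% of genes called higher and 39.1% called lower. ND6 had the largest log2 fold change of the 7013 genes tested, 5.21 (SE 0.39, adjusted p = 3.36e-08), and its mean was 32.4-fold that of 0h. ND4L stood at place 2 with 4.35 (SE 0.45, adjusted p = 1.17e-06), ND2 at place 4 with 4.24 (SE 0.33, adjusted p = 6.47e-08) and ND5 at place 5 with 4.07 (SE 0.27, adjusted p = 9.35e-09). ND4 rose by 2.86 (SE 0.30, adjusted p = 1.36e-06), ND3 by 2.68 (SE 0.45, adjusted p = 0.00012) and ND1 by 2.40 (SE 0.30, adjusted p = 6.99e-06), at places 9, 11 and 14. Leaving out replicate 1 of 0h gave the lowest value for all 7 members, with 4.76 for ND6 and 2.10 for ND1. This comparison shares its libraries with the other comparisons.

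The members with a full TAA stop codon rose by 4.07 to 5.21 and those that end in a lone T by 2.40 to 4.24, and these ranges overlap through ND2. The TAA of ND4L lies within the bases shared with ND4, so it need not mark the 3′ end of an mRNA. Outside complex I, COX1 and ATP6, which carry TAA, rose by 1.90 and 2.33, and CYTB, which ends in an encoded AGA, by 4.30. COX2 and COX3, which end in a lone T, rose by 2.09 and 1.28, and these ranges overlap as well.

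The 2 steps of maturation were set against each other within the same fit, as the rise from 0h to 22h minus the rise from 22h to 46h. On this log2 scale, the first step was larger in 5 of 7 members, against 16.2% of all genes tested. Of the 6 other mitochondrially encoded protein genes it was larger in 1, CYTB (2.02, limma, adjusted p = 0.0121). The difference was 3.62 for ND6 (SE 0.67, adjusted p = 0.00143), 3.46 for ND4L (SE 0.79, adjusted p = 0.00605), 2.93 for ND3 (SE 0.78, adjusted p = 0.0151), 2.38 for ND2 (SE 0.58, adjusted p = 0.00919) and 1.96 for ND5 (SE 0.46, adjusted p = 0.00774). It was 0.88 for ND4 (95% interval -0.24 to 2.0, adjusted p = 0.258) and 0.87 for ND1 (95% interval -0.23 to 1.97, adjusted p = 0.252). The call of ND3 was lost without replicate 1 of 22h (2.43, adjusted p = 0.0587) and with no filter on low values (2.93, adjusted p = 0.0635). By 22h, ND6 had made 84.8% of its log2 rise and ND4L 89.8%, and ND1 and ND4 had made 68.2% and 65.3%. Differences of the mean FPKM gave another picture, as ND5, ND1 and ND4 gained more FPKM in the second step than in the first. ND6, ND4L and ND3 gained more FPKM in the first step, and ND2 gained nearly the same in both.

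**Figure D2:**
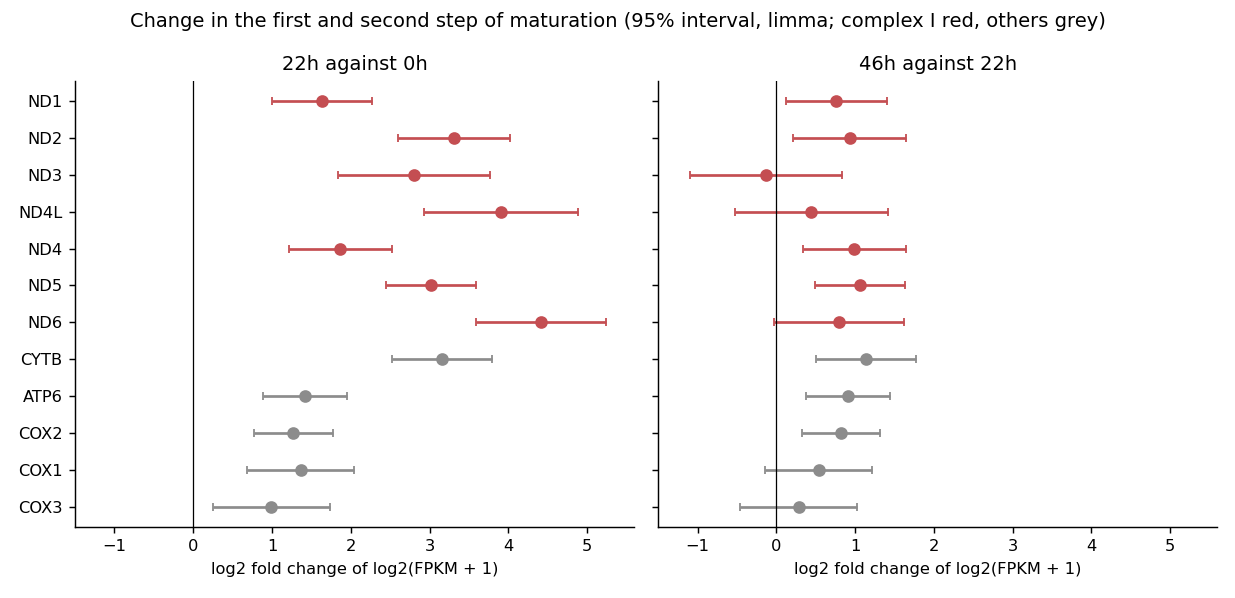
Log2 fold change of log2(FPKM + 1) with its 95% interval (limma, 12 libraries) for 12 mitochondrially encoded mRNAs from 0h to 22h (left) and from 22h to 46h (right), complex I in red and other proteins in grey. In the first step ND6, ND4L and ND2 lie between 3.31 and 4.42, near CYTB at 3.16, whereas in the second step all members lie between -0.13 and 1.06.

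The other mitochondrially encoded proteins belong to complex III (CYTB), complex IV (COX1, COX2, COX3) and ATP synthase (ATP6, ATP8). All of them but ATP8 rose from 0h to 46h. CYTB, the cytochrome b subunit, rose by 4.30 (adjusted p = 1.63e-08), within the range of the complex I members, and ATP6, COX2, COX1 and COX3 rose by 1.28 to 2.33. ATP8 was listed at 0 in 11 libraries and at 3628 FPKM in replicate 2 of 22h. In FPKM, ATP6 was the most abundant mitochondrial mRNA at every time, with 44872 ± 5216 FPKM (SD, n = 4) at 46h.

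Set against the sum of the 13 mitochondrially encoded protein genes, the complex I mRNAs took between 5.95% and 10.5% at 0h, between 20.1% and 24.0% at 22h and between 22.2% and 23.9% at 46h. To test the members on this scale, each library was divided by that sum and all genes were fitted again. Shares of 1 sum are tied to each other, and on this scale most genes of the oocyte fell: 94.0% were called lower and 0.257% higher from 0h to 22h. Of the 7 members, 5 rose relative to the sum. Of the 6 other genes, 2 were called higher: CYTB (1.52, limma, adjusted p = 0.000105) and ATP8, which was listed at 0 in most libraries. ND6 rose by 2.78 (adjusted p = 1.18e-08), ND4L by 2.30 (adjusted p = 6.46e-06), ND2 by 1.67 (adjusted p = 1.95e-05), ND5 by 1.38 (adjusted p = 0.00031) and ND3 by 1.17 (adjusted p = 0.00358) on the log2 scale.

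ND1 and ND4 were not called relative to the sum. ND1 had -0.01 (95% interval -0.71 to 0.70) and ND4 0.24 (95% interval -0.46 to 0.94). ND1 took 1.21% to 2.42% of the sum at 0h and 1.25% to 2.35% at 22h, whereas ND6 took 0.398% to 0.882% and then 3.03% to 4.58%. These values depend on the denominator: relative to the geometric mean of 12 of the genes, ATP8 left out because it was listed at 0 in most libraries, ND1 fell by 0.80 (adjusted p = 0.0448), and ND3 (0.38, adjusted p = 0.357) and ND5 (0.58, adjusted p = 0.141) were not called.

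From 22h to 46h, 0.128% of genes were called higher and 50.8% lower on this scale, and 1 member was called. ND3 fell by 0.91 (SE 0.36, adjusted p = 0.0352), from 0.925% to 1.53% of the sum to 0.558% to 0.762%. Its call was lost without replicate 1 or 2 of 22h or any 1 of the 46h replicates (adjusted p = 0.0506 to 0.108). The call was also lost with the geometric mean as denominator (limma, adjusted p = 0.0857) and with the replicate number as a block (adjusted p = 0.0774). The other 6 members lay between -0.34 and 0.27. From 0h to 46h, where 0.143% were called higher and 97.8% lower, ND6 (2.79), ND4L (1.96), ND2 (1.81) and ND5 (1.65) rose relative to the sum, the ranges of ND4L overlapping. ND4 (0.45), ND3 (0.26) and ND1 (-0.03) were not called. Of the 6 other genes, CYTB rose by 1.87 (limma, adjusted p = 2.57e-06), COX3 fell by 1.15 (adjusted p = 0.00107) and 4 were not called.

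**Figure D3:**
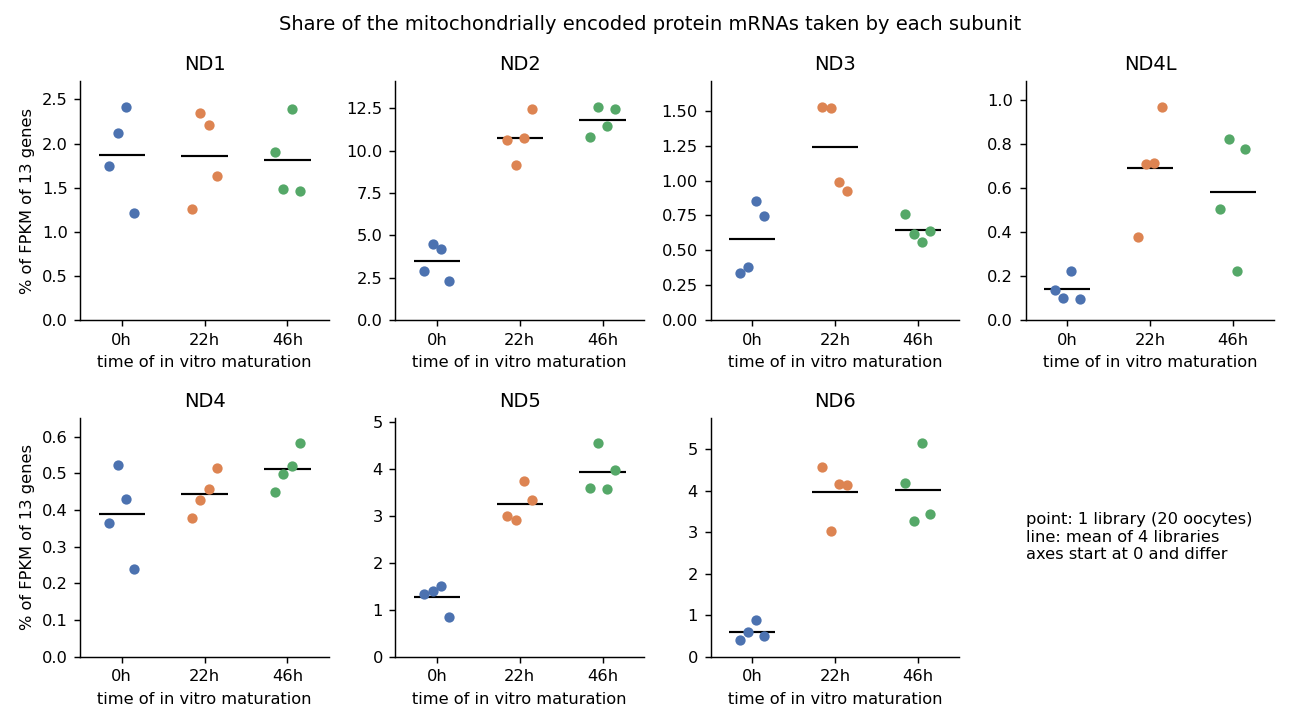
Share of each complex I mRNA in the summed FPKM of the 13 mitochondrially encoded protein genes, in percent, by time; points are libraries, lines are means of 4, and each axis starts at 0. The share of ND6 is 0.398% to 0.882% at 0h and 3.03% to 4.58% at 22h, whereas the share of ND1 overlaps between all times.

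Ratios between mRNAs in the same library do not depend on how libraries are scaled. A set of 8 such ratios, chosen with their values known, is given as a description with no test. The overlapping pair ND4L and ND4 had a ratio between 0.197 and 0.517 at 0h, between 0.998 and 1.89 at 22h and between 0.425 and 1.65 at 46h. Whether this pair lies on separate mRNAs, and the part of read assignment in its ratio, was not tested. For the opposite-strand pair ND6 and ND5 it was 0.296 to 0.589, 1.04 to 1.53 and 0.720 to 1.44. The ratio of ND2 to ND1 was 1.67 to 2.13, 3.89 to 8.46 and 4.79 to 8.49. In each of these, the 0h and 22h libraries did not overlap.

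ND5 and CYTB, which flank ND6 on the opposite strand, had a ratio between 0.457 and 0.689 at 0h, between 0.496 and 0.594 at 22h and between 0.464 and 0.546 at 46h. These ranges overlapped. ND6 relative to CYTB was 0.164 to 0.399 at 0h, then 0.546 to 0.769 at 22h and then 0.393 to 0.696 at 46h, so that 22h was separate from 0h and 46h overlapped with both. The ratio of ND5 to ND4 was between 2.66 and 3.69 at 0h, between 6.50 and 8.15 at 22h and between 6.85 and 9.11 at 46h. For ND3 and COX3 it was 0.0253 to 0.0536, then 0.116 to 0.132 and then 0.0755 to 0.106, so that all times were separate and the highest values were those of 22h. For ND2 and COX1 it was 0.122 to 0.472, then 0.746 to 1.21 and then 1.08 to 1.37, where 22h and 46h overlapped.

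**Figure D4:**
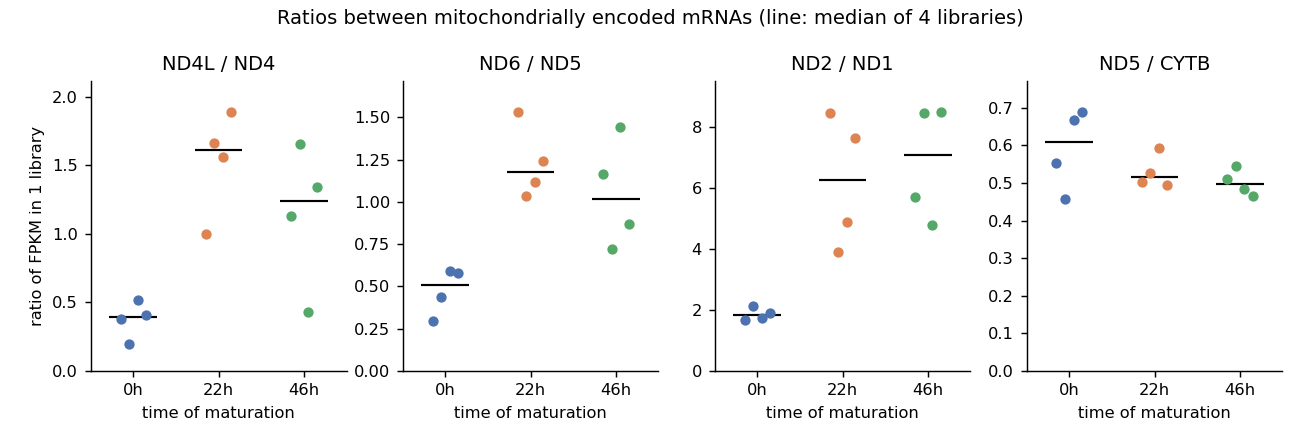
Ratio of the FPKM of pairs of mitochondrially encoded mRNAs in the same library, by time; points are libraries, lines are medians of 4, and each axis starts at 0. The ratios ND4L to ND4, ND6 to ND5 and ND2 to ND1 are lower in all 0h libraries than in all 22h libraries, and ND5 to CYTB overlaps between times.

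Over the 12 libraries, Pearson's r of log2(FPKM + 1) between the 21 pairs of members was 0.852 to 0.996 with a median of 0.955, which includes the difference between times. For deviations from the mean of each time it was 0.283 to 0.969 with a median of 0.669. These values describe libraries that share 1 scaling per library. The 5 named genes outside the mitochondrial genome with the highest r to the mean of the members, out of 6097, were ONECUT2 (0.971), EIF4E3 (0.960), PPP2R5A (0.953), SPAG16 (0.951) and YWHAB (0.948). ONECUT2, a transcription factor, was at 193 ± 62.8, 485 ± 67.8 and 779 ± 90.7 FPKM at the 3 times (SD, n = 4 each). PPP2R5A stayed under 2 FPKM in all libraries. Without replicate 1 of 0h these genes stood at places 2, 5, 18, 10 and 23.

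Most of the nuclear-encoded subunits tested, with which the members are assembled, were lower at 46h than at 0h, where 39.1% of all genes tested were called lower. Of 7 nuclear core subunits, which carry the flavin, the iron-sulfur clusters and part of the ubiquinone site, 6 had a matching identifier and 5 were tested. All 5 fell from 0h to 46h, with a median log2 fold change of -1.98 against -0.25 over all genes tested. NDUFV1, the flavin-carrying subunit that binds NADH, went from 9.47 ± 2.40 to 0.0725 ± 0.0991 FPKM (SD, n = 4 each), a log2 fold change of -3.26 (adjusted p = 1.27e-06) that depends on the pseudocount of 1. NDUFS1, an iron-sulfur subunit, fell by 3.19.

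Of 30 accessory subunits, 23 matched and 19 were tested, of which 16 fell, 0 rose and 3 were not called from 0h to 46h, with a median of -4.09. At an unadjusted p under 0.05 the number that rose was also 0, and of the core and accessory subunits together 1 rose after median-of-ratios scaling or quantile normalization. Over core and accessory subunits together the median from 0h to 46h was -2.93. It was -4.47 with a pseudocount of 0.1 FPKM, -2.28 with quantile normalization and -2.15 with no filter on low values. NDUFB7 had the largest fall, from 209 ± 104 to 0.760 ± 0.693 FPKM (log2 fold change -6.87, adjusted p = 1.78e-07). Its fall also depends on the pseudocount of 1, as its lowest 46h library was at 0 FPKM. Core and accessory subunits called lower numbered 3 and 10 from 0h to 22h, where 18.9% of all genes were called lower, and 2 and 16 from 22h to 46h, against 32.6% of all genes. The 2 of 5 core subunits of the second step are near that share. NDUFB6 was the 1 nuclear subunit that rose in the second step, by 0.64 (adjusted p = 0.0129), and the call was lost with TPM, without replicate 3 of 22h and without replicate 4 of 46h, where 0 were called higher. It had 0.28 over the whole of maturation (adjusted p = 0.217).

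Of 17 assembly factors, which help to build the complex and are not part of it, 15 matched and 11 were tested. From 0h to 46h, 7 fell, 0 rose and 4 were not called (median -1.19), against 39.1% of all genes called lower and 16.8% higher, and NDUFAF5 fell the most, by 4.04 (adjusted p = 9.77e-10). At an unadjusted p under 0.05 again 0 rose, whereas 1 rose after median-of-ratios scaling and 2 after quantile normalization. The median was -0.94 after median-of-ratios scaling, -0.49 after quantile normalization, where 5 fell, and -1.70 with a pseudocount of 0.1 FPKM. With a minimum mean of 5 FPKM, which tests fewer genes, 4 were called lower.

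**Figure D5:**
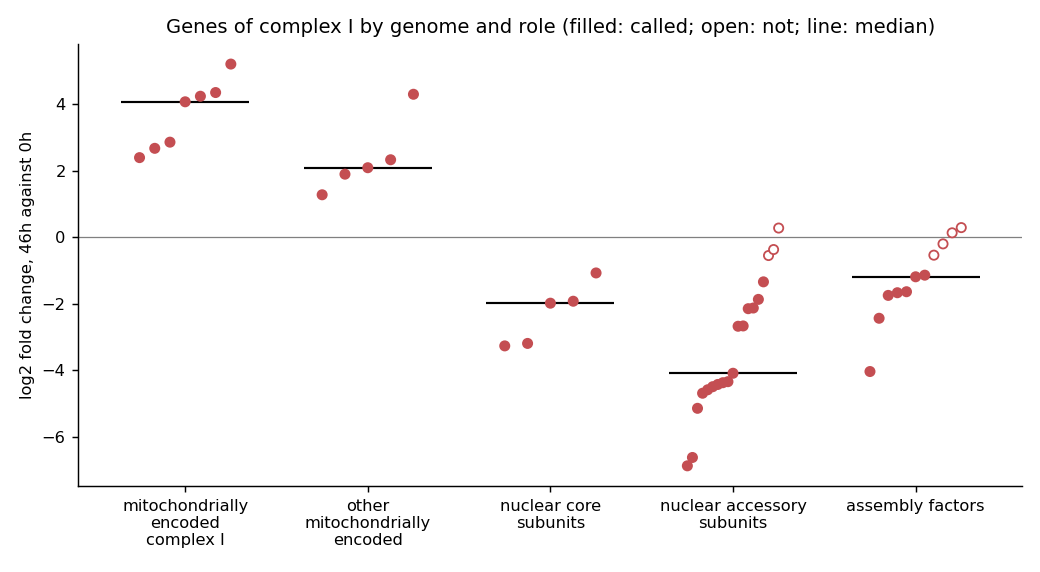
Log2 fold change from 0h to 46h (limma on log2(FPKM + 1)) of genes of complex I by genome and role, with the other mitochondrially encoded proteins except ATP8; each point is a gene, filled where called, and lines are medians. The 7 mitochondrially encoded members lie between 2.40 and 5.21, and the 5 nuclear core subunits all lie below 0 with a median of -1.98.

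Lists of genes that act on mitochondrial transcripts or DNA held calls in both directions from 0h to 46h, where 16.8% of all genes were called higher and 39.1% lower. The counts called lower in these lists are near that share. Of 9 genes of mitochondrial transcription, 8 matched and 3 were tested (median 0.07): MTERF3, of the family of mitochondrial termination factors, rose by 0.67 (adjusted p = 0.00551), and TFB1M, a methyltransferase of mitochondrial rRNA, fell by 2.48 (adjusted p = 6.19e-08). Of 18 genes of RNA processing, polyadenylation and turnover, 14 were tested, of which 5 rose and 5 fell (median 0.23). FASTKD2, an RNA-binding protein, rose by 1.16 (adjusted p = 0.0126). PRORP, the nuclease that cuts the 5′ ends of mitochondrial tRNAs, went from 682 ± 34.6 to 10.8 ± 0.668 FPKM (SD, n = 4 each), a log2 fold change of -5.85 (adjusted p = 1.3e-11). Of 13 genes of mitochondrial DNA replication, 11 were tested, of which 3 rose and 5 fell (median -0.07). POLG2, the accessory subunit of the mitochondrial DNA polymerase, had a log2 fold change of 0.996 and was called higher (adjusted p = 0.000162), and SSBP1, the mitochondrial single-stranded DNA-binding protein, fell by 6.50 (adjusted p = 1.66e-10).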

How the data were processed

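The authors checked the reads (FastQC), trimmed them (Trim Galore), mapped them to the pig genome (STAR) and estimated gene levels with RSEM. The deposited values are FPKM with 2 decimals, and no counts were used here. The 31908 Ensembl identifiers were named from the RefSeq annotation of Sscrofa11.1, which named 15027, and the mitochondrial rRNAs had no such match and were not analysed here. Values were taken as log2(FPKM + 1), and the 7013 genes whose mean reached 1 FPKM, all members included, were fitted with limma 3.58.1 in R 4.3.3 (eBayes with trend, stage as the only factor, 12 libraries, Benjamini-Hochberg adjustment over the genes tested). The fit was also run on simulated data, and no outcome of that run is given here. Nuclear copies were searched with BLAST 2.17.0 (E-value 1e-10).

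The members and lists were chosen with earlier results of these data known. The named genes were all members, the largest called rise and fall of each nuclear list from 0h to 46h, and the 5 genes most correlated with the members. NDUFS1 and NDUFB6 were named after their values were seen. The step difference, the ratios and the counts of lists under other settings were chosen after the data were seen. Alternatives were the pseudocount, filter, scaling, spread estimate, thresholds, denominator, replicate block and each library left out.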

Additional observations from a re-analysis of the deposited data

Results flagged for a closer look

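Single libraries stood apart from the other 3 of their time in 3 of the 132 groups of 4 libraries checked, and chance gives about 5% of groups. None was a value of a complex I member. ATP8 was at 3628.31 FPKM in replicate 2 of 22h and at 0 in the other libraries, so that its share of the 13 mitochondrially encoded protein genes was 5.70% there. COX1 had a share of 14.2% of the 13 genes in replicate 1 of 22h, above the other 3 libraries of that time. Both enter the sum to which the members were set, and without either library the number of members called relative to that sum from 0h to 22h was 5, as with all libraries.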

How the results depend on the processing

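All 7 members were called higher at 22h and at 46h against 0h under each alternative, each library left out included. Of 504 log2 fold changes of members under alternatives, 484 gave the same call, 17 lost it, 3 gained it and 0 changed sign where called. Relative to the mitochondrial sum these were 303, 10, 2 and 0 of 315. The number of members called from 22h to 46h was 4, against 2 with no filter, 2 with the replicate number as a block and 2 to 5 with a library left out. On the relative scale it was 1, against 0 with the geometric mean of 12 genes without ATP8, 0 with the replicate block and 0 to 1 with a library left out. ND1 was lost with TPM (adjusted p = 0.0712), ND2 with quantile normalization (adjusted p = 0.0681), and ND6 passed with median-of-ratios scaling (adjusted p = 0.0203) and with only the groups compared (adjusted p = 0.0127). ND4 passed from 0h to 46h relative to the 6 other genes (0.70, adjusted p = 0.0489). With a mean of at least 5 FPKM, 2546 genes were called from 0h to 46h (3922 otherwise), which tests fewer genes. Assembly factors called lower were then 2 (of 5) from 0h to 22h and 4 (of 7) from 0h to 46h. From 22h to 46h they were 3 (of 6) after quantile normalization and 3 after median-of-ratios scaling, and with a library left out from 0h to 22h 3 to 5. The cause was not tested.

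Libraries with the same replicate number correlated between -0.47 and 0.38, and from 0.0088 to 0.38 between 22h and 46h. Those with different numbers correlated between -0.41 and 0.17 between 22h and 46h. The numbers were not taken to pair the libraries, but these values do not settle whether 22h and 46h were paired. With the block, ND1 (adjusted p = 0.0512) and ND2 (adjusted p = 0.061) lost their calls from 22h to 46h. The median of all genes from 0h to 46h was -0.25, against 0.37 with quantile normalization and 0.06 with median-of-ratios scaling. Depth is unknown, so no counting error is given.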
